A study of Mus musculus with 12 samples.

Results

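The comparison is between the skin of mice labelled Serpinb3a-null and of wild-type BALB/c mice, both under a patch marked SAL, and it takes in 6 of the study's 12 RNA-sequencing libraries, 3 per genotype. The members were chosen by their sample labels, and all genes of the count table were compared. In all animals the back was shaved on day 0, a gauze patch lay on the shaved skin from day 1 to day 4, and skin under it was collected on day 5. The SAL groups carried the patch without the 200 µg of Aspergillus fumigatus extract given to the other 6 libraries (ASP), and the labels do not spell out SAL. The labels describe the second genotype as a knockout of SCCA2 in the titles, as Serpinb3a transgenic in the genotype field and as Serpinb3a null in the design text. They give no age, do not say whether a library is 1 animal or a pool, and do not describe the allele. Because Serpinb3a was counted higher in these libraries than in wild type, the animals are called labelled-null here, and each direction is drawn by that label. The p-values measure the spread between libraries, which the labels do not tie to separate animals.

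Many serpins of clade B are intracellular protease inhibitors that trap their target protease in a covalent complex. Mouse Serpinb3a belongs to a cluster of clade B genes that stratified epithelia such as the epidermis express, and the human genes of this family, SERPINB3 and SERPINB4, are known as the squamous cell carcinoma antigens and are raised in inflamed skin. Whole back skin also holds hair follicles, dermis, vessels, resident macrophages and dendritic cells, fat and a thin sheet of skeletal muscle, so each value is a mixture of these.

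Total counts were 12659425, 9183009 and 10897803 in wild-type replicates 1, 2 and 3 and 6705396, 12933436 and 12009435 in the labelled-null ones. All levels below are CPM, counts relative to the library total after TMM scaling, the trimmed mean of M-values method of edgeR. Except for hair keratin genes, the skin markers fixed for the check were present in all 6 libraries. Krt5 of basal epidermis ran from 634 to 3040 CPM and Krt10 of the suprabasal layers from 1181 to 5465. Of the hair keratins, Krt71 had 0 counts in every labelled-null library. Krt33b had 0 counts in labelled-null replicates 1 and 2 and in wild-type replicate 3. Apoa1, made by liver, had no counts, and Alb stood between 0.569 and 7.19 CPM. Labelled-null replicate 1 was the shallowest library and stood farthest from the others, with a median Spearman correlation of 0.901 to the other 5, against 0.928 to 0.941 for the rest. It held the lowest Krt5, Krt14 and Krt10 of the 6. Wild-type replicate 1 alone held abundant hair root sheath RNA, with 189 CPM of Tchh (trichohyalin) against 2.08 to 5.55 in the other 5. Genes with a Mup symbol, related copies coding for major urinary proteins, took 8.43% to 21.1% of counts in wild type and 18.7% to 39.0% in labelled-null libraries. Because fewer cells of a type and less RNA per cell give the same bulk value, the cell type lists below cannot tell them apart.

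The upstream sequences of 7 genes are printed from RefSeq (GRCm38.p6, which is mm10), each covering 250 bases before the annotated start and 50 after it, 5′ to 3′ on the gene's strand. The first 4 belong to the serpin genes that stood apart between the genotypes, 3 of them upward and Serpinb3b downward. In the Serpinb3 genes the capitals mark TATAAA, the TATA box letters, searched on both strands. In Serpinb3a, at chr1:107052254-107052553 (minus strand), it begins 65 bases upstream of the start.
Serpinb3a: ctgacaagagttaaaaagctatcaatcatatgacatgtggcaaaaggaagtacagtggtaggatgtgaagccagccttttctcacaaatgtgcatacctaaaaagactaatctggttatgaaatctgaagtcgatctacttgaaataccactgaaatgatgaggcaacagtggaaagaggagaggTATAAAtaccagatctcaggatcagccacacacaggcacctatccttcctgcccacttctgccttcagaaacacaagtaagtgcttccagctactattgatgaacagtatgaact
In Serpinb3b, at chr1:107161065-107161364 (minus strand), it begins 41 bases upstream.
Serpinb3b: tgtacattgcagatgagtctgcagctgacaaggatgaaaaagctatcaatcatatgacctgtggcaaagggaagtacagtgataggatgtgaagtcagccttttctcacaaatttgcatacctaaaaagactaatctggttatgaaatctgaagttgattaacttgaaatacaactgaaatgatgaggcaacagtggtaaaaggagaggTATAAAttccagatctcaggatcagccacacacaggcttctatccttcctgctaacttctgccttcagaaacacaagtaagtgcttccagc
In Serpinb3d, at chr1:107083431-107083730 (minus strand), it lies 40 bases upstream on the opposite strand and so appears in the reverse complement.
Serpinb3d: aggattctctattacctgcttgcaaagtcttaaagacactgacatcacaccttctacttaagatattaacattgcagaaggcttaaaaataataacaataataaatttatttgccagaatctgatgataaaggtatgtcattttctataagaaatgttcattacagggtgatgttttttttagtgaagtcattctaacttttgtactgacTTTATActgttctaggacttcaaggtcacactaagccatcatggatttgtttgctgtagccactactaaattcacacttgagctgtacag
In Serpinb11, at chr1:107362064-107362363 (plus strand), the capitals mark both copies of TGANTCA, the AP-1 element, 181 and 76 bases upstream.
Serpinb11: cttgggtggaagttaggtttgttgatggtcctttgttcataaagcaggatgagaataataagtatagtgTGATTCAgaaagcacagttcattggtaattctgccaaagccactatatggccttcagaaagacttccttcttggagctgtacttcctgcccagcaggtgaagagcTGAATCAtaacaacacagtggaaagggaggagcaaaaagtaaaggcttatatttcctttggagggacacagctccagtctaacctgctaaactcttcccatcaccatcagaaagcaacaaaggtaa
TATAAA was found in all 4 Serpinb3 paralogs and in 13.6% of the 32851 mouse promoters of the same length. TGANTCA was found in 7.81% of them, and 2 or more copies in 0.46%. The windows of Serpinb3a and Serpinb3b were 79.3% identical and those of Serpinb3b and Serpinb3c 90.0%, whereas Serpinb3a and Serpinb3d shared 40.1% and Serpinb3b and Serpinb3d 44.6%.

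The other 3 sequences belong to circadian clock genes that stood lower in the labelled-null libraries, and are shown because they hold a clock motif. Dbp and Usp2, the other clock genes lower without overlap, hold neither motif in this window. In Per3, at chr4:151044616-151044915 (minus strand), the capitals mark both copies of TTATGNAA, the D-box letters, 205 and 158 bases upstream.
Per3: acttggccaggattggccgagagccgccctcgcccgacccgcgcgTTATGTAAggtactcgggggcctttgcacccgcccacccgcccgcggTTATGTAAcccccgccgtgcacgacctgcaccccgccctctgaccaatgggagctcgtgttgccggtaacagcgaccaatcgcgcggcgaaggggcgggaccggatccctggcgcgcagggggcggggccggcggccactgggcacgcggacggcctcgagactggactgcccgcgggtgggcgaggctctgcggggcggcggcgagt
In Cry1, at chr10:85185005-85185304 (minus strand), the capitals mark CACGTG, the E-box bound by the CLOCK and BMAL1 proteins, 60 bases upstream.
Cry1: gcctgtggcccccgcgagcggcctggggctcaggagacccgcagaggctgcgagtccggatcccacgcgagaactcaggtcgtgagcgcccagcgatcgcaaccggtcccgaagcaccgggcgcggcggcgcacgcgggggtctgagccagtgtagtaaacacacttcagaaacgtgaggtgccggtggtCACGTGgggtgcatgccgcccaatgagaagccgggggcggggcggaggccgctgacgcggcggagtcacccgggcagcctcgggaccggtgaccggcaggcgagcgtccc
In Tef, at chr15:81802423-81802722 (plus strand), CACGTG begins 127 bases upstream.
Tef: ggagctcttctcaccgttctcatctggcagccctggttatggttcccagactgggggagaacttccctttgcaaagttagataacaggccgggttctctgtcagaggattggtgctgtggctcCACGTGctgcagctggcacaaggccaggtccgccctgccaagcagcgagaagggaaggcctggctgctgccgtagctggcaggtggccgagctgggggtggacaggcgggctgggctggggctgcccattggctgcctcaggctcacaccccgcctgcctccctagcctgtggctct
CACGTG was found in 7.15% of all promoters and TTATGNAA in 3.38%, with 2 or more copies of the latter in 0.161%. Of the 18 clock list members with a promoter in the table, 5 held CACGTG and 2 held TTATGNAA, and of the 5 lower without overlap 2 and 1 did. These matches describe the letters only.

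No gene passed edgeR's test over all genes. Of 15341 genes tested, edgeR's quasi-likelihood test with Benjamini-Hochberg adjustment called 0 (0%) at an adjusted p under 0.05, and the smallest adjusted p was 0.354, shared by Serpinb11 and Serpinb3a. At an unadjusted p under 0.05 there were 339 higher (2.21%) and 331 lower (2.16%) in labelled-null libraries, 4.37% in all. DESeq2 called 6, all higher, of which Serpinb11, Serpinb3a, Gsta2, Cyp2g1 and C1qc are described below. The last, Gm15093, was named after its values were seen, had counts in labelled-null replicate 1 alone among the 6 libraries and is not read further. limma-voom called 0, with 927 at an unadjusted p under 0.05. All genes named below other than Serpinb11 and Serpinb3a had an adjusted p of 1 in edgeR, so their values are given with no call. The 3 labelled-null libraries all lay above the 3 wild-type libraries for 556 genes (3.62%) and all below for 681 (4.44%), together 8.06%. These shares are the background for each count of members without overlap. A list's count of called members is edgeR's unless another tool is named. Over all tested genes the median log2 fold change, labelled-null over wild type, was 0.012, and 51.3% were positive.

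The gene named in the genotype field and design text, and its neighbours, came first. Serpinb3a (Entrez Gene 20248, chromosome 1 from 107045587 to 107052303, mm10) stood at 0.725, 0.7196 and 0.304 CPM in wild-type replicates 1, 2 and 3 and at 6.39, 8.61 and 7.21 CPM in labelled-null replicates 1, 2 and 3, from 8, 7 and 4 and 40, 72 and 76 counts. The groups were well apart, with every labelled-null library above every wild-type one. The log2 fold change was 3.66 ± 0.67 (SE), with an adjusted p of 0.354 in edgeR and of 3.594e-05 in DESeq2.

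Serpinb11, which codes for another clade B serpin, lies on chromosome 1 from 107362314 to 107380475. Its levels were 0.634, 1.13 and 0.3797 CPM in wild type and 10.1, 5.14 and 9.3 CPM in labelled-null, from 7, 11 and 5 and 63, 43 and 98 counts. The lowest labelled-null library, replicate 2, stood above the highest wild-type one, also replicate 2. The log2 fold change was 3.52 ± 0.62, with an adjusted p of 0.354 in edgeR and of 3.594e-05 in DESeq2.

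Serpinb3d, a paralog of Serpinb3a, had very low counts in wild type, at 3, 1 and 3, against 13, 23 and 23 in labelled-null. In CPM these were 0.272, 0.103 and 0.228 and 2.08, 2.75 and 2.18, again without overlap, with a log2 fold change of 3.45 ± 0.89. Serpinb3b, the most abundant paralog in wild type, went the other way, with 34.7, 27.9 and 9.64 CPM in wild type and 6.87, 7.06 and 6.64 in labelled-null. Here the 3 labelled-null values lay close together and all wild-type values were higher, with replicate 3 nearest, and the log2 fold change was -1.81 ± 0.496. Serpinb3c stood at 3.44, 3.495 and 0.835 and 1.92, 2.27 and 0.949 CPM, with overlapping groups and a log2 fold change of -0.597 ± 0.69. Summed over the 4 paralogs, the wild-type libraries held 39.1, 32.2 and 11.01 CPM and the labelled-null ones 17.2, 20.7 and 16.99, which overlap. Stretches of 50 bases that a paralog shares with the others made up 4.97% of Serpinb3d, 6.51% of Serpinb3a, 9.44% of Serpinb3c and 14.3% of Serpinb3b transcripts. How reads from shared stretches were counted is not given, so these shares do not bound the error of a paralog's count. Mean wild-type levels were 24.1 CPM for Serpinb3b, 0.583 for Serpinb3a and 0.201 for Serpinb3d. A given number of misassigned reads would thus weigh most on the low ones.

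The window of 1000 kb on either side of Serpinb3a holds 17 tested genes, 12 of them clade B serpins. Of the 12 serpins, 4 had no overlap between the genotypes (Serpinb3a, Serpinb3d and Serpinb11 above and Serpinb3b below), and of the 5 other genes none did. On chromosome 1 as a whole the share without overlap was 8.17%. Serpinb12 and Serpinb13, epithelial serpins on the near side of the cluster, were thinly counted. Serpinb13 had a log2 fold change of -1.55 ± 1.27, which rested on wild-type replicate 2 (0.0906, 4.11 and 0.3797 CPM in wild type and 0.1597, 0.957 and 0.3796 in labelled-null) and was 1.04 without that library. Among the more abundant members, Serpinb10 had a log2 fold change of -0.66 ± 0.45, at 23.9, 57.6 and 17.3 CPM in wild type and 9.43, 27.99 and 24.7 in labelled-null with overlap. The others gave values nearer 0, with -0.056 ± 0.32 for Serpinb5, the gene for maspin, 0.11 ± 0.37 for Serpinb2, which inhibits plasminogen activators, 0.14 ± 0.35 for Serpinb8 and 0.27 ± 0.32 for Serpinb7. Under the ASP patch, in other libraries, Serpinb3a had a log2 fold change of 1.31 ± 0.63, with 2.68 ± 0.91 for Serpinb3d, 2.61 ± 0.58 for Serpinb11 and -0.95 ± 0.48 for Serpinb3b, the same signs as under SAL. The difference of the genotype effects between the patches was 2.35 ± 0.901 for Serpinb3a, with an adjusted p of 0.998 in edgeR.

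**Figure D1:**
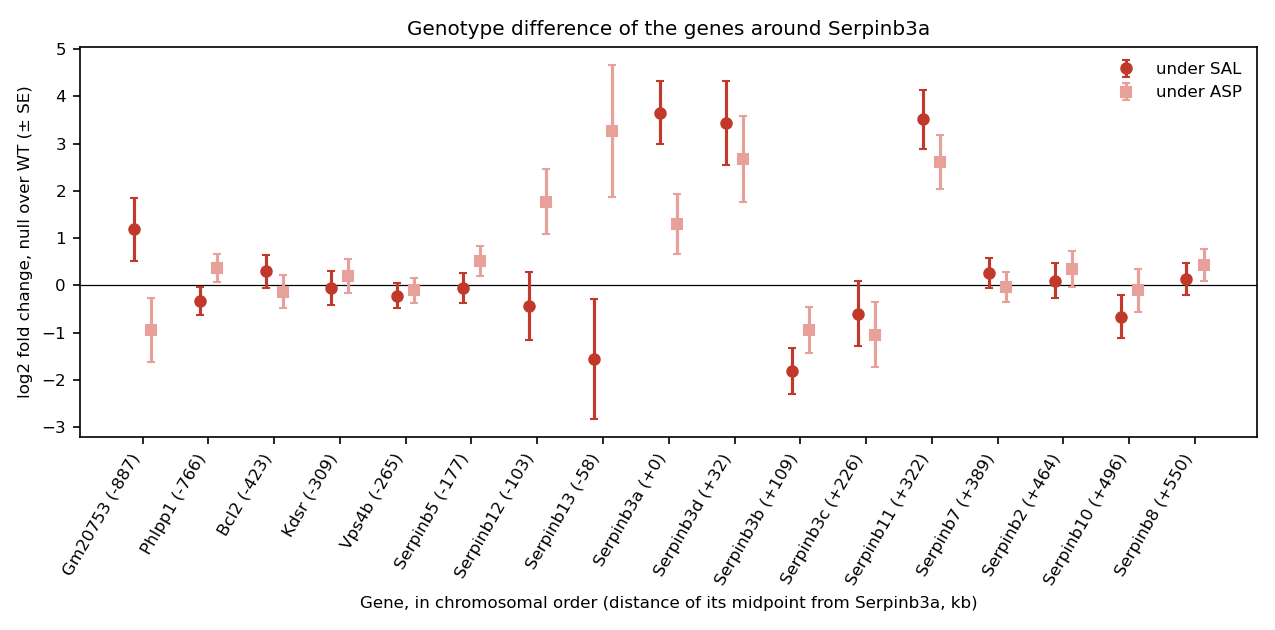
Log2 fold change of labelled-null over wild type (vertical axis, points with bars of 1 SE) for the 17 tested genes around Serpinb3a in chromosomal order (horizontal axis, distance in kb), under SAL (circles) and under ASP (squares). Serpinb3a, Serpinb3d and Serpinb11 lie above 0 and Serpinb3b below 0 under both patches, with most other genes nearer 0. Serpinb12 and Serpinb13 lie below 0 under SAL but at 1.78 ± 0.70 and 3.27 ± 1.40 under ASP.

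Among the genes of smallest p, Cyp2g1, a cytochrome P450 best known from olfactory mucosa, stood at 8.701, 4.63 and 5.32 CPM in wild type and 32.7, 74.5 and 51.8 CPM in labelled-null libraries. The groups were far apart, with labelled-null replicate 2 highest. The log2 fold change was 3.09 ± 0.69 under SAL and 2.84 ± 0.69 under ASP, and DESeq2 called it under both, at adjusted p of 0.004646 and 0.04183. C1qc, which codes for a chain of the complement starter C1q and is made by macrophages, stood at 37.7, 45.03 and 41.3 CPM in wild type and 121, 116 and 87.1 CPM in labelled-null. The lowest labelled-null library was well above the highest wild-type one, and the log2 fold change was 1.38 ± 0.296 under SAL and 0.195 ± 0.29 under ASP.

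Gsta2, which codes for an alpha-class glutathione transferase that detoxifies electrophiles, stood at 0.725, 2.47 and 1.44 CPM in wild type and 3.04, 5.86 and 76.4 CPM in labelled-null. Labelled-null replicate 3 carried most of this, replicate 1 lay just above the highest wild-type library and replicate 2 between them. Its relatives followed the same library, with 4.95, 3.35 and 55.1 CPM of Gsta1 and 2.396, 3.35 and 56.4 CPM of Gm10639 in labelled-null and at most 3.91 in wild type. Of the 50-base stretches of Gsta1 transcripts 90.5% also occur in a relative, and 49.3% of those of Gsta2, so these 3 are not separate measurements. The log2 fold changes were 4.21 ± 0.93 for Gsta2, 3.18 ± 0.85 for Gsta1 and 3.92 ± 0.96 for Gm10639, against 0.001 ± 0.78 for Gsta2 under ASP.

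Single libraries also carried other genes high in this ranking. Stfa3, a stefin that inhibits cysteine proteases, reached 111, 14.95 and 6.64 CPM in labelled-null against 6.07, 1.75 and 1.06 in wild type, with replicate 1 highest. Nlrc4, a sensor of the inflammasome, was at 25.4, 1.79 and 0.285 CPM, so only labelled-null replicate 1 stood far above the wild-type levels of 0.272, 0.308 and 0.304. Hsd17b2, which inactivates sex steroids, was at 0.544, 1.03 and 0.456 CPM in wild type and 0.958, 13.4 and 3.23 in labelled-null, with replicate 2 highest and replicate 1 within the wild-type range.

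Among genes lower in labelled-null libraries, Rab23, a GTPase that restrains hedgehog signalling, stood at 19.2, 10.5 and 11.6 CPM in wild type and 5.11, 3.11 and 5.41 CPM in labelled-null, a log2 fold change of -1.597 ± 0.396 under SAL and 0.056 ± 0.38 under ASP. Clcn1, the chloride channel of skeletal muscle, stood at 28.4, 24.6 and 30.8 and 16.1, 8.61 and 8.16 CPM (-1.35 ± 0.35), and Ddx52, an RNA helicase, at 19.5, 41.6 and 16.4 and 11.5, 6.101 and 9.87 CPM (-1.497 ± 0.39). In each of these the groups did not overlap. Polr3e, a subunit of RNA polymerase III, ran from 37.9, 23.03 and 8.66 CPM in wild type to 6.23, 4.79 and 7.97 CPM in labelled-null, where wild-type replicate 3 was only just higher (-1.87 ± 0.5004). Rad51b, a recombination repair gene, stood at 6.43, 2.36 and 2.28 and 0.1597, 0.718 and 0.949 CPM (-2.52 ± 0.69).

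A further 3 of the genes of smallest p on this side rested largely on wild-type replicate 2. Nnat (neuronatin, overlapping Blcap) stood at 1.09, 57.3 and 11.8 CPM in wild type and 2.72, 0.239 and 0.1898 in labelled-null, with overlap. Scgb1a1, a secretoglobin of airway epithelium, stood at 7.61, 34.1 and 3.95 and 0.799, 3.11 and 1.99 CPM, without overlap. Tspyl4 stood at 1.99, 26.9 and 3.72 and 0.479, 2.15 and 0.3796 CPM, with overlap. Per3, also among them, is described with the clock genes.

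**Figure D2:**
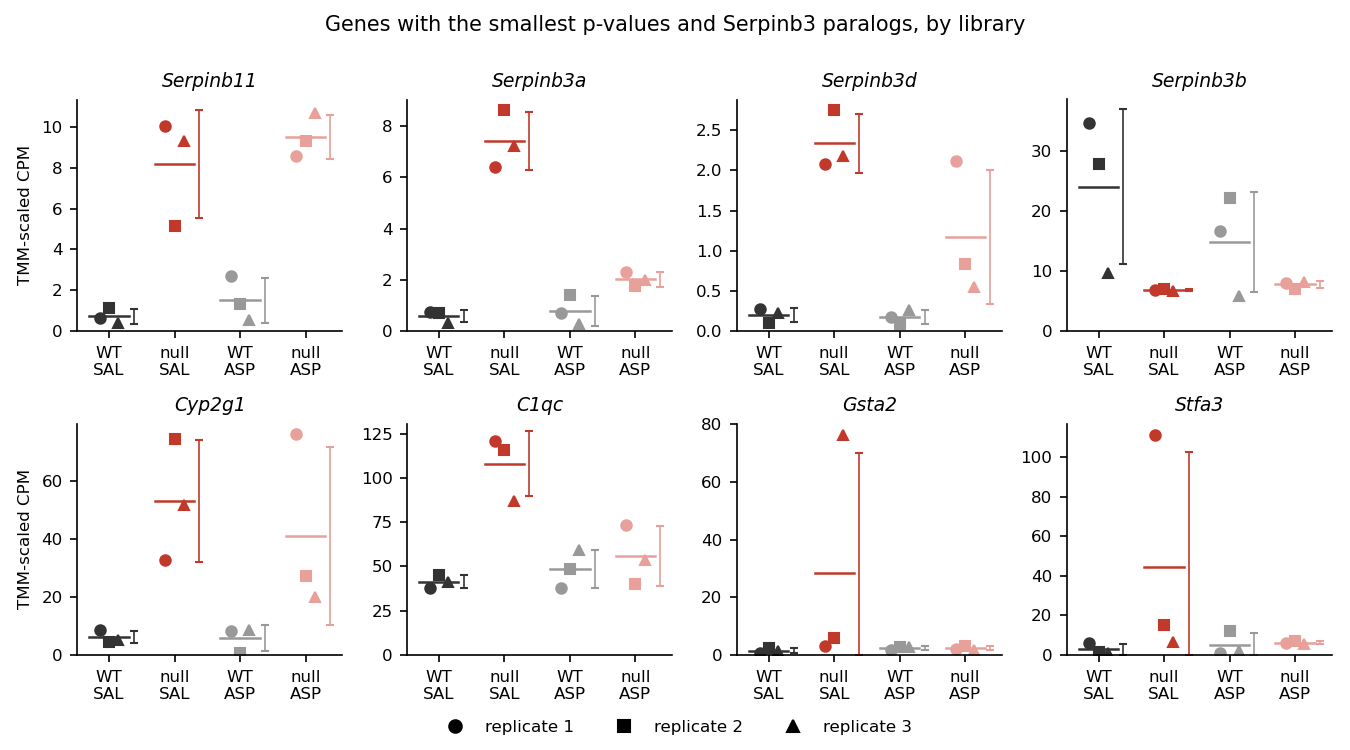
TMM-scaled CPM (vertical axes, linear from 0) of 8 genes in each of the 12 libraries by group, with marker shapes for replicates, a line at the mean and a bar of 1 SD cut at 0. Serpinb11, Serpinb3a, Serpinb3d, Cyp2g1 and C1qc stand apart between the SAL groups in all libraries, whereas Gsta2 and Stfa3 are each carried by 1 labelled-null library, at 76.4 and 111 CPM.

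**Figure D3:**
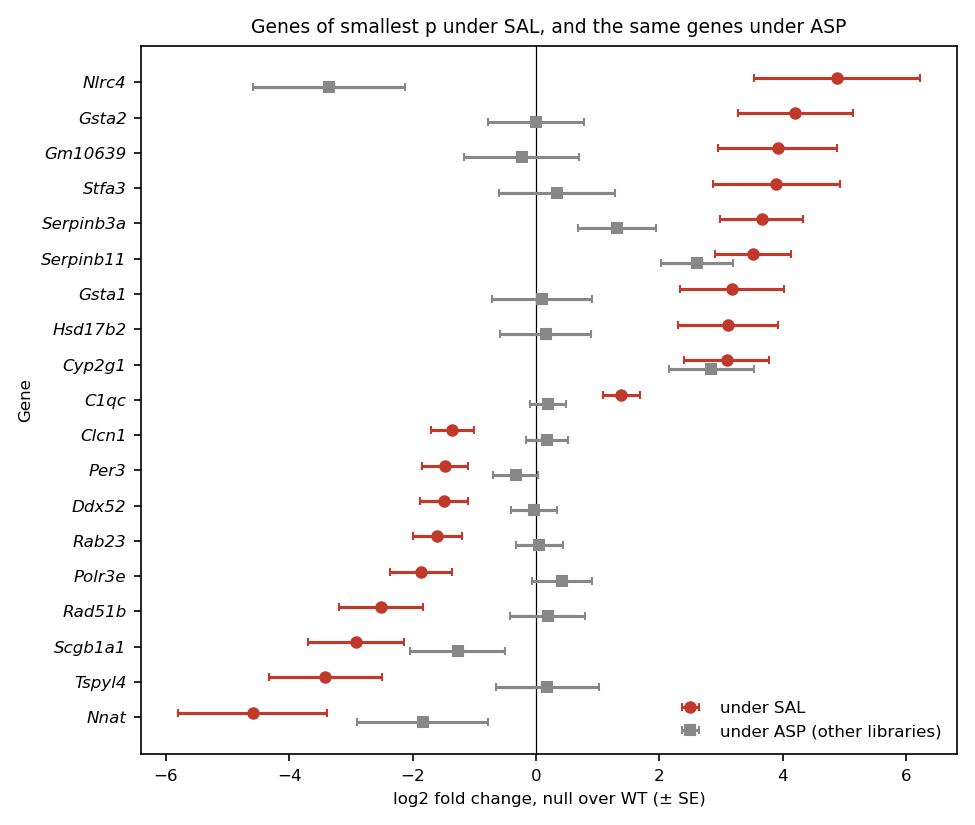
Log2 fold change of labelled-null over wild type (horizontal axis, bars of 1 SE) for the described genes of smallest p in each direction under SAL, under SAL (circles) and in the separate ASP libraries (squares). Serpinb11, Serpinb3a and Cyp2g1 stand well above 0 in both, C1qc and the Gsta genes lie near 0 under ASP, and Nlrc4 changes sign.

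Of the antigen-presenting and phagocytic cell genes, many stood higher in labelled-null skin. On the list of dendritic and Langerhans cell markers, 22 of 29 tested members (of 30 listed) had a positive log2 fold change, with a median of 0.63, against 51.3% and 0.012 over all genes. edgeR called 0 of them. In 6 members (Cd209a, H2-Ab1, H2-DMa, H2-DMb1, Cd83 and Ccl22) the labelled-null libraries all lay above wild type, where 3.62% of all genes did, and in none below. Cd209a, a C-type lectin of monocyte-derived dendritic cells, stood at 13.2, 18.4 and 15.7 CPM in wild type and 62.3, 33.02 and 28.8 in labelled-null, with replicate 1 highest (1.39 ± 0.41). H2-DMa and H2-DMb1 code for the chaperone that loads peptide onto MHC class II. H2-DMa, which overlaps Brd2, stood at 3.08, 11.9 and 7.82 and 21.4, 21.1 and 13.7 CPM (1.297 ± 0.44), and H2-DMb1 at 2.18, 3.29 and 4.48 and 7.51, 8.61 and 7.78 CPM (1.26 ± 0.45). H2-Ab1, the beta chain of the class II molecule I-A, stood at 67.2, 82.8 and 58.3 and 95.8, 145 and 108 CPM (0.74 ± 0.31). The defining markers of these cells did not all follow: Itgax (CD11c) had a log2 fold change of -0.91 ± 0.61 and Cd207 (langerin) of 0.43 ± 0.48, both named after their values were seen. Summed over the list, wild type held 1779, 2122 and 1236 CPM and labelled-null 2188, 3282 and 2367, without overlap. Without wild-type replicate 1 the median was 0.398. Under ASP the median of the same list was -0.21, and the fold changes of Cd209a and H2-DMa were -0.17 ± 0.404 and -0.47 ± 0.43. Neither edgeR nor DESeq2 called a gene of this list for the difference between the patches.

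Among monocyte and macrophage markers 24 of 29 tested (of 30) were positive, with a median of 0.51. edgeR called 0 of them and DESeq2 called C1qc, at an adjusted p of 0.0224. For 5 of them (C1qc, C1qb, Csf1r, Fcgr1 and Folr2) the labelled-null libraries all lay above wild type, and for none below. Fcgr1, the high-affinity IgG receptor, stood at 0.544, 1.85 and 1.14 CPM in wild type and 8.47, 2.87 and 2.66 in labelled-null, with replicate 1 highest (1.97 ± 0.71). C1qb was at 34.7, 48.6 and 32.7 and 49.7, 63.2 and 52.4 CPM, a smaller difference than for C1qc (0.51 ± 0.303), and C1qa, named after its values were seen, was at 2.45, 4.32 and 4.33 and 6.39, 3.23 and 5.98 CPM with overlap (0.49 ± 0.67). Of the 3 chains of C1q, which form 1 molecule, C1qa alone overlapped between the groups. Lysozyme genes were carried by replicates 2 and 3, with 182, 302 and 326 CPM of Lyz2 in wild type and 233, 925 and 618 in labelled-null (1.13 ± 0.42), and Lyz1 at 1.23 ± 0.41 shares 16.1% of its stretches with Lyz2. The macrophage marker Adgre1 (F4/80), named after its values were seen, stood at 13.1, 24.8 and 21.9 and 10.1, 22.1 and 23.3 CPM (-0.101 ± 0.43). Summed over the list, wild type held 1767, 2241 and 1595 CPM and labelled-null 2047, 4128 and 3245, with labelled-null replicate 1 inside the wild-type range. The median under ASP was 0.16.

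Neutrophil markers were sparse. Of 18 listed, 11 could be tested, 10 were positive with a median of 1.13 and 0 were called, and Ly6g, Elane, Ngp, Ltf, Camp, Mmp8 and Fpr1 were not tested. Retnlg stood at 0.0906, 0.617 and 0 CPM in wild type and 5.59, 1.67 and 0.759 in labelled-null (3.496 ± 1.26), and Mpo (myeloperoxidase) at 2.27, 0.308 and 0.684 and 2.88, 6.46 and 3.796 CPM (1.999 ± 0.85). Both were without overlap at levels of a few CPM. S100a8, the calprotectin subunit that neutrophils and stressed keratinocytes share, was at 1.99, 0.617 and 0.456 and 1.44, 4.43 and 4.08 CPM with overlap. The list's median was 0.423 without labelled-null replicate 3 and 1.59 without wild-type replicate 1. Under ASP 5 of the 11 were positive, with a median of -0.25.

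The genes of type 2 immunity, the allergic arm of the response, did not move as 1 block. The cytokine genes Il4, Il5, Il9, Il13 and Il25 were too low to test. Of 27 tested members (of 36) 20 were positive, with a median of 0.27 and 0 called, and 5 lay above wild type without overlap and 1 below. Ccl24 (eotaxin-2, a chemokine for eosinophils) stood at 0.0906, 0.308 and 0.152 CPM in wild type and 0.958, 1.32 and 3.04 in labelled-null (3.23 ± 0.98). Ccl22, a chemokine of dendritic cells that attracts Th2 cells, stood at 2.9, 3.08 and 3.57 and 8.79, 5.86 and 15.1 CPM (1.64 ± 0.63), with replicate 3 highest, and the receptor of interleukin 33, Il1rl1, at 4.35, 4.63 and 5.85 and 9.27, 12.3 and 13.5 CPM (1.24 ± 0.497). Retnla, a marker of alternatively activated macrophages, was at 8.701, 25.7 and 27.3 and 35.3, 84.8 and 37.7 CPM (1.35 ± 0.66), and Clec10a, a macrophage lectin, had 1.001 ± 0.53. The alarmin Il33 itself was the 1 below, at 63.7, 66.1 and 48.8 CPM in wild type and 20.9, 35.4 and 47.6 in labelled-null (-0.78 ± 0.38), where labelled-null replicate 3 was only just lower than wild-type replicate 3. Receptor and ligand thus lay on opposite sides. Ccr3, the eotaxin receptor of eosinophils, was at 2.81, 0.925 and 0.911 and 11.98, 9.81 and 2.28 CPM with overlap (2.36 ± 0.82). The list's median ran from 0.023 without labelled-null replicate 3 to 0.628 without wild-type replicate 2, against -0.086 under ASP.

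Other cytokine and immune lists were mixed. Il1f6, the keratinocyte cytokine IL-36 alpha, stood at 3.08, 4.22 and 1.44 CPM in wild type and 4.63, 9.09 and 26.1 in labelled-null, with replicate 3 highest (2.2005 ± 0.63), and Cxcl12, a stromal chemokine, at 66.8, 79.4 and 68.5 and 32.4, 39.6 and 59.8 CPM (-0.701 ± 0.28), both without overlap. Proinflammatory cytokines and myeloid chemokines had 17 of 27 positive and a median of 0.21, which was below 0 without wild-type replicate 3 (-0.0882), labelled-null replicate 2 (-0.0487) or labelled-null replicate 3 (-0.0881). The type 17 and antimicrobial list had 15 of 20 tested (of 35) positive and a median of 0.23, with Rnase4 (overlapping Ang) at 0.64 ± 0.301 and the receptor Il17ra at -0.56 ± 0.35. Its median was 0.0138 without wild-type replicate 3 and 0.430 without wild-type replicate 2. The 38 interferon response genes had 22 positive and a median of 0.07, with Cxcl11 lower at -1.95 ± 0.93. T cell and innate lymphoid markers had 14 of 24 positive (0.055), mast cell markers 6 of 12 (0.006), B and plasma cell markers 3 of 6 (0.006) and eosinophil and basophil markers 5 of 5 (0.69). The last of these medians was 0.175 without labelled-null replicate 2 and 0.405 under ASP. Neither edgeR nor DESeq2 called a member of these lists.

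In the epidermis, late differentiation genes were mostly on the higher side by small amounts. Of the cornified envelope and terminal differentiation list, 41 of 45 tested members (of 50) were positive, with a median of 0.397, 4 without overlap above and 0 below, and 0 called. Casp14, the caspase that processes filaggrin, stood at 148, 90.98 and 62.3 CPM in wild type and 223, 193 and 154 in labelled-null (0.92 ± 0.49). Cnfn (cornifelin) stood at 129.9, 65.3 and 67.3 and 176, 175 and 131 CPM (0.88 ± 0.37), Calml3 at 17.4, 13.8 and 23.9 and 26.5, 36.8 and 31.98 CPM (0.79 ± 0.399) and Lce1a2, a late cornified envelope gene, at 75.4, 84.8 and 50.7 and 88.2, 129.8 and 91.01 CPM (0.55 ± 0.28). The level of the whole list was uneven among the libraries, with 23160.0, 14310.0 and 16950.0 CPM in wild type and 10850.0, 31200.0 and 22910.0 in labelled-null. Labelled-null replicate 1 was the lowest of all 6 and replicate 2 the highest. Basal keratinocyte genes had the same lowest and highest libraries, with 1710.0, 5706 and 4832 CPM in labelled-null and 4719, 2702 and 3113 in wild type, 9 of 15 positive and a median of 0.11. The part of epidermal RNA content in these values was not tested. Without labelled-null replicate 2 the cornified envelope median was 0.040, and under ASP it was 0.24.

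The enzymes that build the lipid barrier of the stratum corneum had 26 of 35 tested members positive and a median of 0.27, with 4 above wild type without overlap. Slc27a4, a fatty acid transporter needed for the skin barrier, stood at 18.5, 9.46 and 22.3 CPM in wild type and 30.5, 47.7 and 25.1 in labelled-null (1.04 ± 0.37), and Elovl7, a fatty acid elongase, at 59.2, 44.5 and 37.4 and 61.2, 96.9 and 79.6 CPM (0.75 ± 0.29). Both also stood above wild type without overlap under ASP, at 0.76 ± 0.37 and 0.57 ± 0.29, and that list's median there was 0.28. Under SAL it was 0.059 without labelled-null replicate 2. Skin proteases and inhibitors had 25 of 32 tested (of 37) positive and a median of 0.25. Serine proteases led it: Klk8 at 7.61, 6.27 and 8.35 and 7.35, 19.3 and 55.1 CPM (1.88 ± 0.63) and Tmprss13 at 16.04, 11.9 and 16.2 and 19.97, 23.9 and 72.98 CPM (1.41 ± 0.48), each with labelled-null replicate 3 far above the other libraries, and without it the median was 0.093. The epidermal stress and wound list had 20 of 26 tested (of 36) positive and a median of 0.604, led by the stefin genes, of which Stfa2 and Stfa2l1 were near 0 in labelled-null replicate 1 and higher in replicates 2 and 3, at 0.479, 3.95 and 3.42 CPM for Stfa2 and 0.1597, 5.503 and 5.31 for Stfa2l1 in labelled-null. That median was 0.165 without labelled-null replicate 2 and 0.381 without replicate 3. Tight junction and adhesion genes (23 of 38 positive, 0.052), cell cycle genes (20 of 40, 0.035) and heat shock chaperones (12 of 18, 0.12) lay near the median of all genes.

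Most endothelial genes were on the lower side. Of the 28 endothelial cell markers, all of them tested, 19 had a negative log2 fold change, and the median was -0.31. The other 9 were positive, up to 1.196. At an unadjusted p under 0.05 edgeR gave 6 lower and 1 higher. In 6 the labelled-null libraries all lay below wild type, where 4.44% of all genes did. The members named here were chosen by small p or lack of overlap. None lay above without overlap and none was called. Cdh5, the cadherin of endothelial junctions, stood at 71.5, 59.9 and 63.6 CPM in wild type and 12.5, 21.3 and 54.9 in labelled-null (-1.13 ± 0.47), where replicate 3 came near the wild-type values. Flt1, a receptor of VEGF, stood at 34.3, 37.01 and 31.3 and 18.9, 7.66 and 23.9 CPM (-1.02 ± 0.42), Kdr, the main signalling receptor of VEGF, at 11.1, 12.9 and 23.01 and 9.11, 3.59 and 10.5 CPM (-1.01 ± 0.48) and Pecam1 (CD31) at 44.5, 26.01 and 29.7 and 16.8, 17.3 and 23.3 CPM (-0.7999 ± 0.38). The transcription factor Sox18 stood at 6.89, 15.3 and 4.78 and 2.56, 0.957 and 4.27 CPM (-1.77 ± 0.71), and Cldn5 was under 1 CPM throughout. The chemokine Cxcl12, lower as given above, is made by endothelium and fibroblasts. Summed over the list, wild type held 359, 382 and 384 CPM and labelled-null 225, 205 and 405, so replicate 3 of labelled-null lay above all wild-type libraries in the sum. Without that library the median was -0.697 and without wild-type replicate 2 it was -0.131, and under ASP it was -0.011.

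Among other stromal lists, fibroblast and extracellular matrix genes had 17 of 36 positive and a median of -0.05, with Col6a3, a collagen VI chain, at 116, 145 and 148 CPM in wild type and 70.6, 50.96 and 101 in labelled-null (-0.87 ± 0.32). Smooth muscle and pericyte genes had 8 of 15 positive (0.037), with Smtn (smoothelin) below wild type without overlap (-0.49 ± 0.31). Peripheral nerve and Schwann cell genes had 8 of 17 (-0.069) and melanocyte markers 5 of 11 (-0.045). Gpnmb, a glycoprotein of melanocytes and macrophages, stood at 22.1, 44.3 and 24.1 CPM in wild type and 10.1, 22.97 and 10.4 in labelled-null with overlap (-1.05 ± 0.42), against -2.098 ± 0.43 under ASP. DESeq2 called it under ASP, at an adjusted p of 0.01143, and not under SAL.

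Part of the circadian clock genes stood lower in labelled-null skin. Of 22 members, all tested, 14 were negative, the median was -0.18, 5 lay below wild type without overlap (Per3, Usp2, Tef, Dbp and Cry1), 0 above, and 0 were called. Per3, a period gene of the negative limb (overlapping Uts2), stood at 33.4, 65.8 and 38.5 CPM in wild type and 11.02, 13.5 and 24.8 in labelled-null (-1.47 ± 0.37). Cry1, a cryptochrome repressor of CLOCK and BMAL1, stood at 8.34, 11.5 and 8.13 and 3.99, 5.74 and 4.27 CPM (-0.99 ± 0.505). Tef and Dbp are output transcription factors that bind D-box elements, at 32.3, 43.1 and 40.8 and 23.6, 18.5 and 26.7 CPM for Tef (-0.75 ± 0.27) and 23.7, 45.5 and 28.3 and 8.31, 10.6 and 23.3 CPM for Dbp (-1.195 ± 0.46), which overlaps Sphk2. The deubiquitinase gene Usp2, a clock output, stood at 62.4, 48.6 and 43.4 and 25.4, 22.6 and 31.6 CPM (-0.95 ± 0.31). The activators of the loop overlapped between the groups, with 0.64 ± 0.43 for Arntl, which codes for BMAL1, and 0.24 ± 0.26 for Clock, and Per1 and Per2 were spread, at 21.9, 34.2 and 83.3 and 4.95, 8.97 and 36.3 CPM in labelled-null, with replicate 3 highest (these 4 were named after their values were seen). The hour of collection is not given in the labels, so genotype and hour cannot be told apart here. The median was -0.374 without labelled-null replicate 3 and -0.059 without wild-type replicate 2. Under ASP it was -0.064, and Tef (-0.41 ± 0.27) and Dbp (-0.899 ± 0.45) were again lower while Usp2 was not (0.046 ± 0.31).

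**Figure D4:**
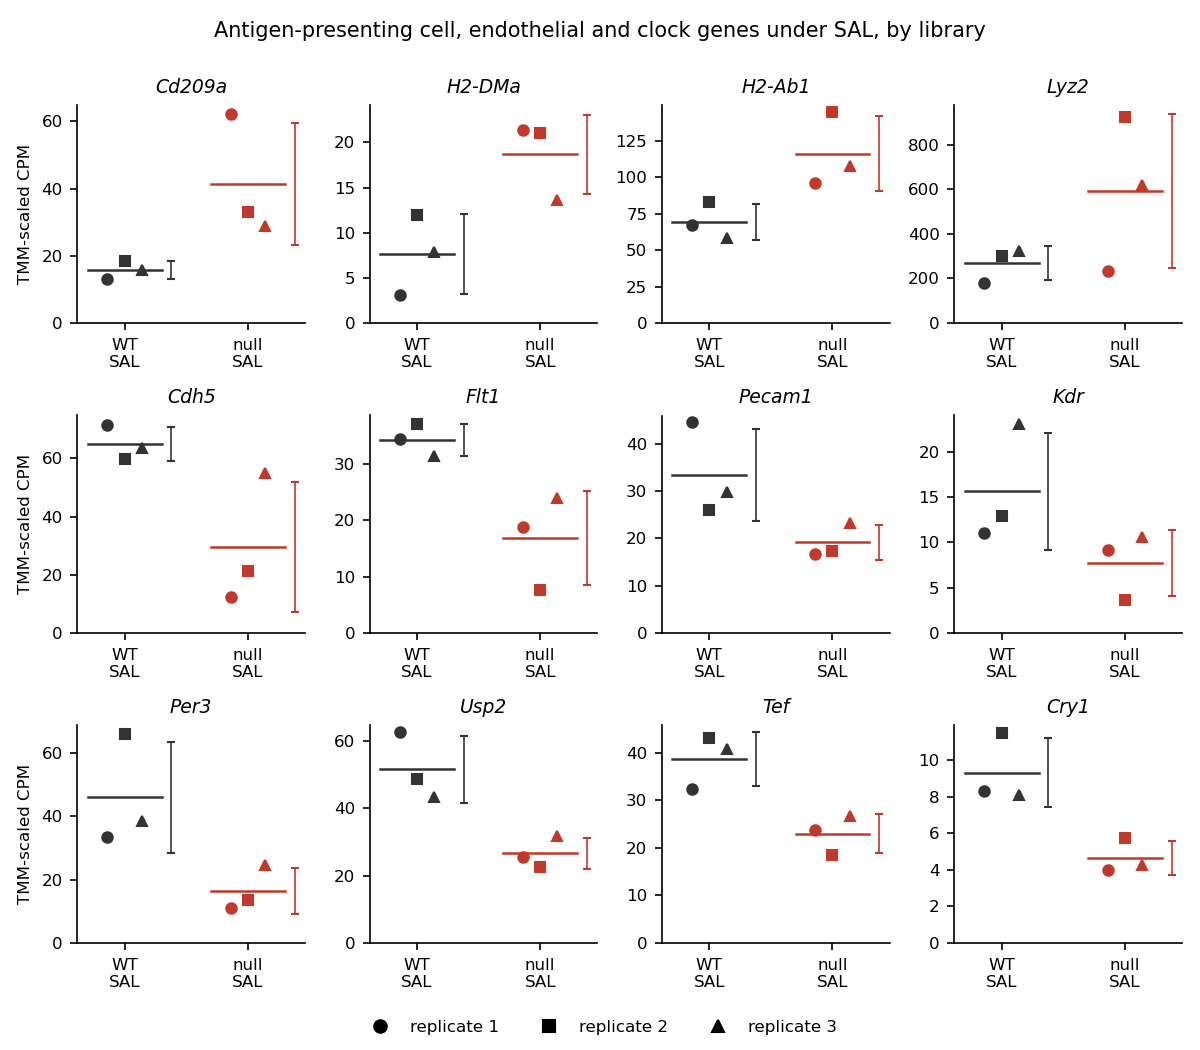
TMM-scaled CPM (vertical axes, linear from 0) of 12 genes in the 6 SAL libraries by genotype, with marker shapes for replicates, a line at the mean and a bar of 1 SD. The antigen-presenting and phagocytic cell genes of the top row stand higher and the endothelial and clock genes shown lower in labelled-null libraries. All but Lyz2 are without overlap between the groups, against 8.06% of all tested genes. The 12 genes were picked by their values, so their separation is no test of these cell types or of the clock.

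The RNA level of muscle and hair genes was uneven among the libraries. Skeletal muscle genes summed to 127700.0, 35810.0 and 121600.0 CPM in wild type and 58800.0, 62130.0 and 56530.0 in labelled-null, so that wild-type replicate 2 was lowest and replicates 1 and 3 highest of all 6. Of 39 tested members (of 42) 31 were negative, with a median of -0.27 and 0 called. Pygm, the muscle glycogen phosphorylase, followed this order at 245, 53.4 and 408 and 116, 86.1 and 109 CPM (-1.19 ± 0.51), with overlap. Against it, Tnnt1, the slow-fibre troponin T, stood at 4.803, 2.16 and 6.15 CPM in wild type and 8.47, 15.4 and 16.3 in labelled-null without overlap (1.61 ± 0.57), and the myogenic factor Myog was nearly undetected in labelled-null, at 0, 0 and 0.0949 against 0.363, 1.44 and 1.22 CPM. The muscle median was -0.588 without wild-type replicate 2 and -0.079 without wild-type replicate 3. Hair shaft and inner root sheath genes had 14 of 47 members tested, 4 positive and a median of -0.86. That median was 0.037 without wild-type replicate 1, the library with Tchh and Krt27 (42.2, 1.85 and 0.3797 CPM in wild type), so it rests on that library. Adipocyte genes had 22 of 29 positive and a median of 0.086, with labelled-null replicate 1 highest (20450.0, 12680.0 and 12660.0 CPM summed, against 13260.0, 13500.0 and 14180.0 in wild type), and without that library the median was -0.168. Retn (resistin) reached 208, 44.1 and 24.7 CPM in labelled-null against 35.2, 32.5 and 21.2. Sebaceous gland genes had 23 of 28 positive (0.198), among them Awat2, a wax synthase, at 1.96 ± 0.701 with overlap.

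The detoxification and oxidative stress list had 26 of 39 positive, a median of 0.2002 and 4 members above without overlap, of which Gsta2 and Cyp2g1, both called by DESeq2, are given above. That median was 0.0711 without wild-type replicate 2. Gsta4, which clears lipid aldehydes, stood at 7.34, 8.64 and 9.19 CPM in wild type and 22.7, 11.5 and 13.6 in labelled-null (0.92 ± 0.41), and Gsta3 had 0.56 ± 0.55. Mt2, a metallothionein, was the 1 below (-0.55 ± 0.32), and stood above wild type under ASP (0.52 ± 0.32).

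Genes of the general machinery differed by little. Of the 68 cytosolic ribosomal protein genes, all tested, 56 were positive with a median of 0.24, 7 lay above without overlap and 0 below, and 0 were called. Rpl15 stood at 242, 264 and 238 CPM in wild type and 282, 454 and 291 in labelled-null (0.46 ± 0.33), with replicate 2 highest, and without that library the median was 0.00054. Under ASP the same list had a median of -0.45, with 5 of 68 positive. Of the 61 subunits of the mitochondrial respiratory chain 28 were positive with a median of -0.015, and Ndufa8 at -2.501 ± 0.89 rested on wild-type replicate 2 (5.08, 100.4 and 7.75 CPM). All 21 Mup genes were positive with a median of 1.21. They summed to 242400.0, 168700.0 and 69780.0 CPM in wild type and 199800.0, 603700.0 and 313400.0 in labelled-null. The copies are related and how shared reads were counted is not given, so the 21 are not read as separate measurements. In these 6 libraries Mup4 stood at 403, 274 and 111 and 409.9, 888 and 493 CPM, where the lowest labelled-null value was only just above the highest wild-type one. The list median was 0.692 without labelled-null replicate 2.

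**Figure D5:**
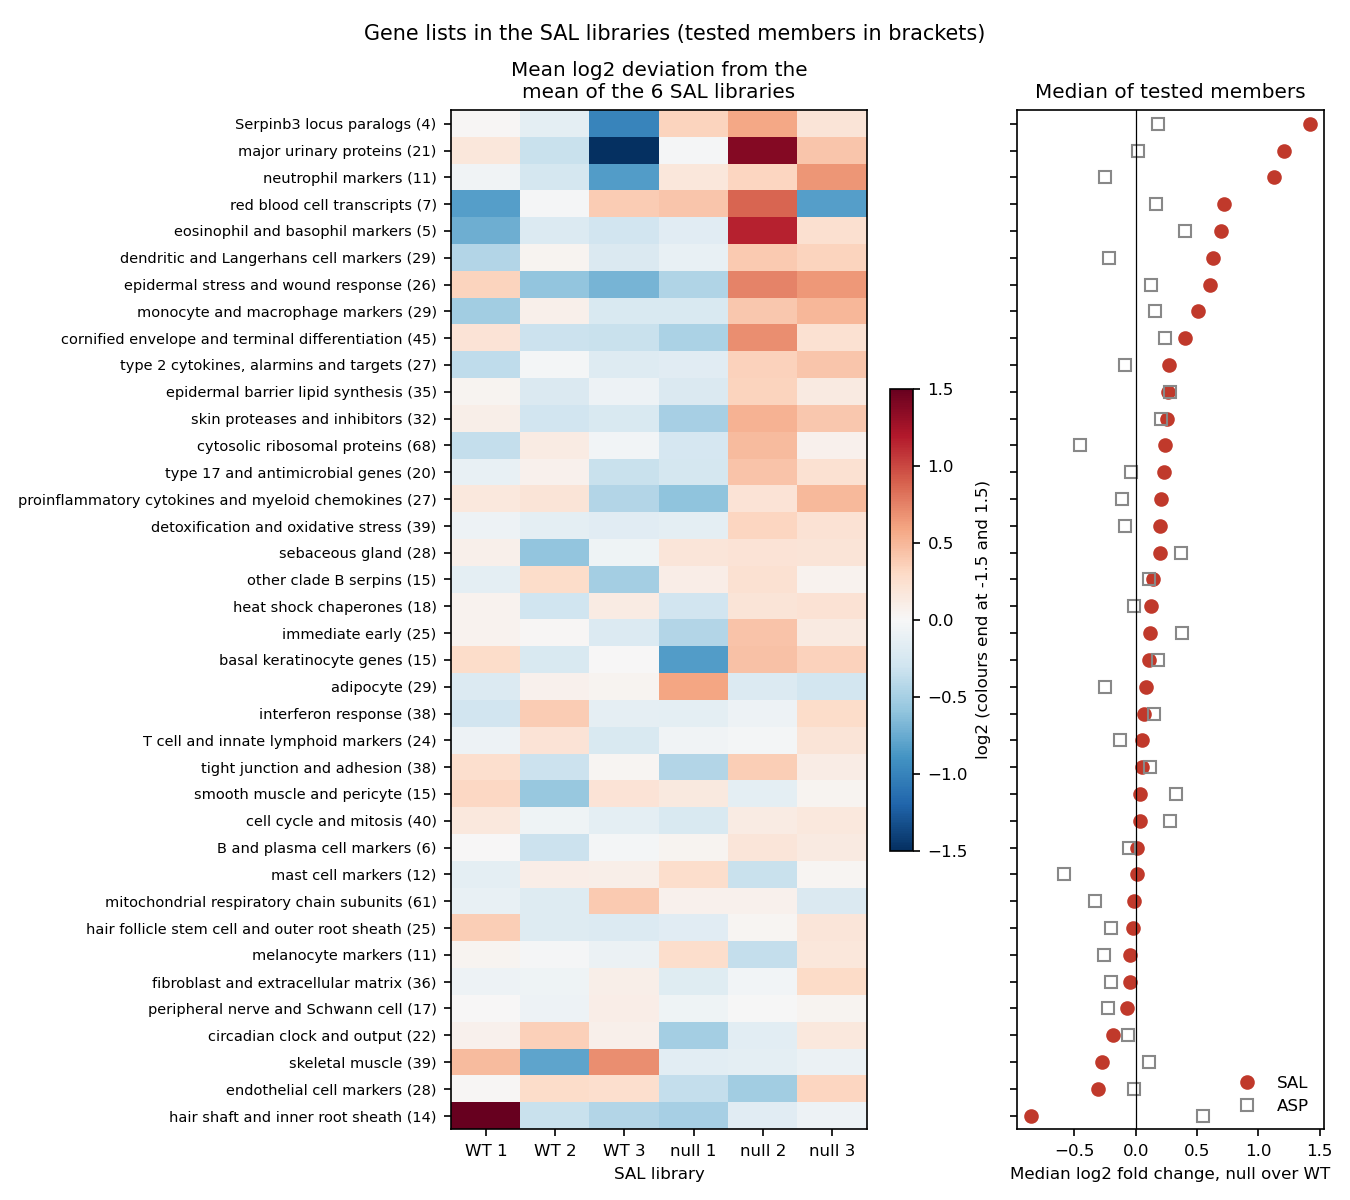
Left, mean log2 deviation of the tested members of 38 gene lists (rows, number tested in brackets) in each SAL library (columns) from the mean of the 6, with colours ending at -1.5 and 1.5. Right, the median log2 fold change of each list under SAL (circles) and ASP (squares); dendritic, macrophage and neutrophil lists lie above 0 and endothelial, muscle and hair lists below 0 under SAL, while the hair list is carried by wild-type replicate 1.

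The genes that stood apart under SAL were set beside their values under ASP, which come from other libraries. Of the 556 genes above wild type without overlap under SAL, 273 (49.1%) had a positive log2 fold change under ASP, and of the 681 below, 356 (52.3%) had a negative one, against a share of 48.5% with the same sign over all genes. The median under ASP was -0.013 for the former and -0.023 for the latter, against 0.79 and -0.79 under SAL. Both shares lay near that of all genes. For 38 genes (0.248%) the labelled-null libraries lay above wild type under both patches and for 22 (0.143%) below under both, while 17 (0.111%) lay above under SAL and below under ASP and 32 (0.209%) the reverse. The 38 included Serpinb11, Serpinb3a, Serpinb3d, Cyp2g1, Slc27a4, Elovl7, Ccl22 and Mpo, and the 22 included Tef and Cldn12. The test of the difference between the patches called 0 of 15341 genes (0%) in edgeR, with 585 (3.81%) at an unadjusted p under 0.05, and DESeq2 called 1, Gm15093. Under ASP edgeR called 0, with 471 (3.07%) at an unadjusted p under 0.05. There the labelled-null libraries lay above wild type for 4.15% of genes and below for 3.47%, together 7.62%. DESeq2 called 5 under ASP, among them Cyp2g1, Serpinb11 and Gpnmb.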

How the data were processed

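Mouse skin RNA was sequenced as 4 groups of 3 libraries. The deposited table holds raw counts, whole reads per Entrez Gene ID, with no normalization. Per the submitters' processing notes, the tools included TopHat, CASAVA 1.8, bcl2fastq and DESeq, with mm10 as the build. How reads were counted, with which annotation and strand setting, is not given in the sources used here. Columns were matched to samples by name, and 6 columns that match no sample were not used. Of 23469 IDs, 23372 matched a symbol in RefSeq, and the other 97 held 7.57% to 15.8% of a library's counts.

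The filter filterByExpr left 15341 genes. After TMM scaling, edgeR 4.0.16 (R 4.3.3) fitted its quasi-likelihood model, robust on, to all 12 libraries with 1 coefficient per group. The biological coefficient of variation was 0.427. Calls needed a p under 0.05 after Benjamini-Hochberg adjustment over all genes tested. With 3 libraries against 3 an exact permutation test cannot go below 0.1. The script was tested on simulated data. DESeq2 1.42.0 and voom of limma 3.58.1, with other settings, were the alternatives. No 2 libraries of the same group agreed within sampling noise.

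Named genes were the 4 Serpinb3 paralogs, in each direction the 10 of smallest p whose mean log2 CPM reached 1, and up to 4 members of each of 38 gene lists with the smallest p. 1 of the genes of smallest p is not reported here. List members without overlap between the groups were added after their values were seen. The members and lists were chosen with earlier results of these data known, so lists are described by counts and medians, without a test. Of 1077 distinct listed genes 932 were tested. Motif letters were searched with Python 3.11.15 and windows aligned with Biopython 1.88. In a count table each level is limited by depth.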

Additional observations from a re-analysis of the deposited data

How the results depend on the processing

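The count of 0 genes called under SAL was the same under 15 of 16 alternatives, and DESeq2 called 6; for the interaction DESeq2 called 1 and for the genotype difference under ASP 5. The smallest adjusted p came down to 0.05002 with no filter on low counts and 0.0532 with only the 6 SAL libraries, and it ran from 0.153 (without wild-type replicate 3) to 0.960 with 1 library left out. The labels do not say whether replicate numbers pair the libraries. Under SAL the deviations of same-numbered libraries correlated at -0.010, -0.046 and 0.019, and those of differently numbered ones at -0.0487 to 0.0532. Such values cannot tell whether same-numbered libraries shared a batch. With the replicate block 0 genes were called (smallest adjusted p 0.578). DESeq2 also brought Serpinb11 (3.56), Serpinb3a (3.71), C1qc (1.40), Gsta2 (4.22) and Cyp2g1 (3.11) past the threshold. Of 158 named genes, 148 kept their direction under every alternative that gave them a value (14 to 16 each), and of 38 list medians 17 did. With no filter the medians were 0.721 for neutrophil markers, 0.499 for B and plasma cell markers and -4.61 for hair shaft genes. The filter of 2 CPM gave -0.595 for the Serpinb3 paralogs, since it left fewer of them. For red blood cell transcripts voom gave -0.054, against 0.718 in the main fit, where 6 of 7 tested members were positive. Their sums overlapped, at 26.3, 58.4 and 58.3 CPM in wild type and 68.05, 94.9 and 18.6 in labelled-null. With 1 library left out, list medians that moved by more than the spread between replicates ran as follows: type 2 cytokines, alarmins and targets (0.023 to 0.628), neutrophil markers (0.423 to 1.59), T cell and innate lymphoid markers (-0.182 to 0.238), B and plasma cell markers (-0.147 to 0.121), hair shaft and inner root sheath (-1.51 to 0.037), hair follicle stem cell genes (-0.138 to 0.277), melanocyte markers (-0.036 to 0.245), fibroblast and extracellular matrix (-0.247 to 0.109), endothelial cell markers (-0.697 to -0.131) and peripheral nerve and Schwann cell (-0.076 to 0.019). Named genes that changed sign with 1 library left out were Krt27 (-4.07 to 0.231), Ndufa8 (-3.28 to 0.050), Fgf5 (-0.825 to 2.15), Serpinb10 (-0.971 to 0.0075), Serpinb13 (-2.34 to 1.04), Cd28 (-3.49 to 2.92), Lama3 (-0.487 to 0.017) and Fgfr2 (-0.399 to 0.00297), and under voom Fgf5 (-0.0996), Hbb-bs (-0.0251), Cd28 (-0.489) and Hbb-b1 (-0.0541). The cause of these changes was not tested beyond the library left out. Depth limits Serpinb3a and Serpinb3d among others, with at most 8 and 3 counts in any wild-type SAL library.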
